A study of Mus musculus with 69 samples.

Results

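Unstressed endothelial cells (EC) of the mouse heart were compared with unstressed vascular smooth muscle cells (VSMC) of the mouse aorta, in 13 of the 69 poly(A) RNA-Seq libraries of the series: the 9 EC libraries of sample groups 9 and 11 to 18 and the 4 WT VSMC libraries of sample groups 1 to 4, all with the treatment Control. The libraries of each group were taken by their labels, while the comparison itself was chosen with earlier results of these data known. Both came from male C57BL/6 mice with the cell genotype WT and were primary cultures that received neither the metabolic stressors (high glucose and free fatty acids) nor the humoral stressors (angiotensin II and noradrenaline). The age of the mice is not given in the sources used here. The study analysed each cell type on its own, and this comparison asks which genes set the cultures apart before any stressor.

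WT VSMC were grown from collagenase digests of thoracic and abdominal aorta in DMEM with 10% fetal calf serum and 10 ng/ml bFGF, and used at up to 7 passages. They were kept free of serum for 24 h before the experiments, and the incubations that followed were also serum-free. EC were released from heart tissue by enzymes, depleted of CD45+ cells and selected on beads for CD31, the product of Pecam1, once after isolation and again at confluence. Cell type therefore coincides with the organ, the isolation, the medium and the batch given in the labels (B1 for VSMC, B2 for EC), and these cannot be told apart. The 9 EC libraries come from 8 animals, since sets 17 and 18 share one. The animal of WT VSMC set 1 also gave EC set 9, and the animals of EC sets 15 and 16 also gave VSMC labelled as Egfr knockout, while those EC are labelled WT. Below, set numbers name the libraries, EC and WT VSMC stand for the labels, and the p-values measure the spread between these 13 cultures.

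Endothelial cells line the vessels and the chambers of the heart. They are recognised by adhesion molecules such as CD31 and VE-cadherin, by the receptors of VEGF and angiopoietin, and by transcription factors of the ETS, SOX17 and TAL1 families. Smooth muscle cells form the wall of the aorta and express contractile proteins under the control of serum response factor (SRF), which binds a sequence called the CArG box. In culture they lose contractile proteins and come to resemble fibroblasts, which keep much of the matrix programme that VSMC also carry. Cells of the trunk retain the HOX code of the body level at which they arose, whereas heart cells carry GATA, TBX and HAND factors.

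The marker genes were examined first. Levels are in FPM, counts scaled to the library's total after TMM normalization, and sums over a list are used only to compare libraries. The summed level of 25 endothelial identity genes was 519, 672 and 683 FPM in EC sets 9, 11 and 13, against 1783 to 7176 FPM in the other 6 EC libraries and 389.7, 515, 353 and 448 FPM in WT VSMC sets 1 to 4. EC sets 9, 11 and 13 thus lay close to the aortic cultures in this sum. The endoglin gene Eng, abundant in both groups, made up a large part of the WT VSMC sums. Sets 11 and 13 also had the highest sums of 20 fibroblast genes among EC, 33478 and 31613 FPM, within the 16663 to 45874 FPM of WT VSMC. Set 17, at 18148 FPM, lay within that range as well. The other 6 EC libraries, set 9 among them, had 3109 to 9820 FPM. In bulk RNA, fewer cells of a type and less RNA per cell cannot be told apart. Because EC sets 9, 11 and 13 stand apart in the endothelial sum, counts are given with and without them. That alternative was chosen after seeing the data. The libraries were set aside for their endothelial markers, so a larger difference of endothelial genes without them follows from the choice. Sets 11 and 13 had the highest EC sums of fibroblast and of smooth muscle contractile genes. More of those genes being higher in WT VSMC without these sets therefore follows in part too.

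The label of the aortic cultures had less support from the contractile genes. The summed level of 20 smooth muscle contractile genes was 3725, 2449, 4372 and 2240 FPM in WT VSMC sets 1 to 4 and 2321 to 7896 FPM in EC, so that the groups overlapped. Myh11, the smooth muscle myosin heavy chain, was at 5.4, 7.02, 2.96 and 10.1 FPM in WT VSMC sets 1 to 4 and ranged from 0 (set 11) to 6.38 FPM (set 13, median 2.82) in EC. Its log2FC was -1.05 ± 0.8 (edgeR FDR = 0.391), and it was not called. Other cell types differed in amount. The 13 leukocyte genes summed to 289, 167, 38.1 and 101 FPM in WT VSMC and 13.9 to 133 FPM in EC, and 5 Schwann cell genes to 27 to 42 FPM against 2.58 to 9.89 FPM. The 14 cardiomyocyte genes summed to 7.58 to 34.5 FPM in WT VSMC and 7 to 309 FPM in EC, most of it from Tnnt2 where the sum was high (305 FPM in EC set 18). Adipocyte and erythroid sums were under 1 FPM in every library. The part of these cells in the differences below was not tested.

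**Figure D1:**
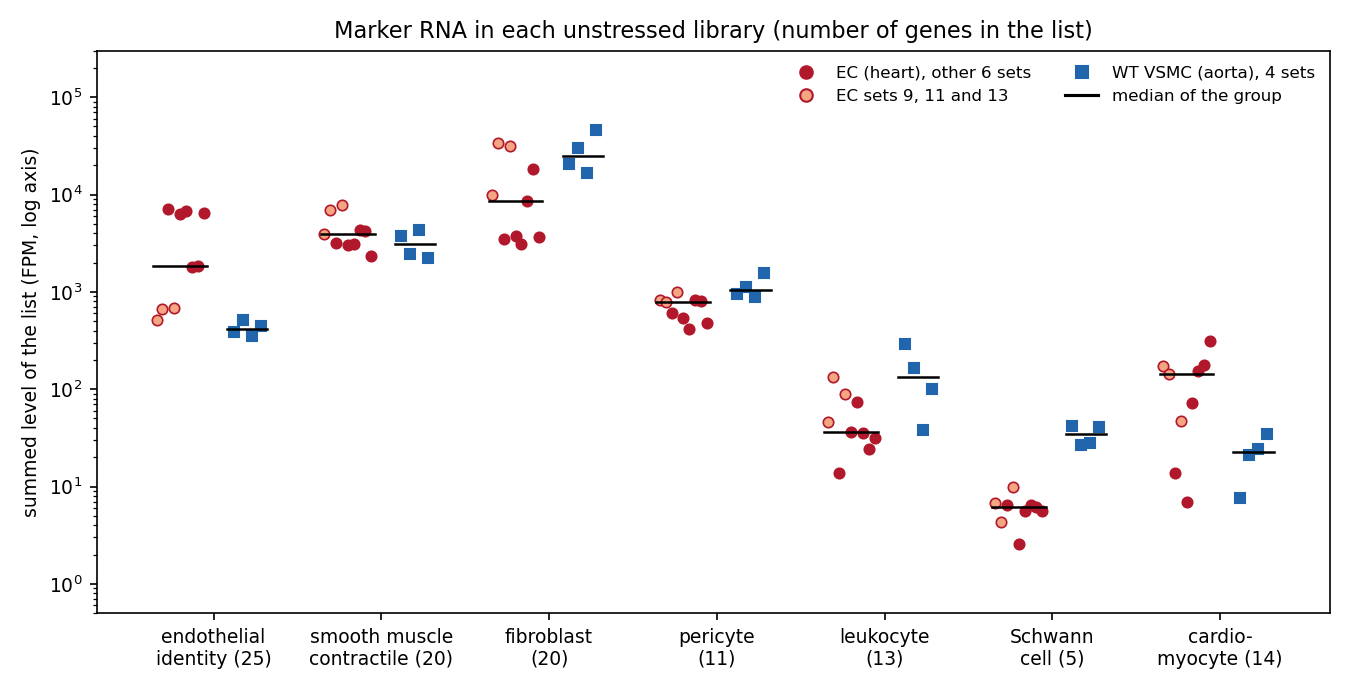
Summed level of each marker list (FPM, log axis) in every unstressed library, with EC as circles (pale for sets 9, 11 and 13), WT VSMC as squares and the median of each group as a line. Endothelial identity sums of the pale circles, 519 to 683 FPM, lie next to the squares, while the smooth muscle contractile sums of both groups overlap.

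The EC libraries held 20999663 to 43240489 counts (median 25665068) and the WT VSMC libraries 30077450 to 37801299 (median 32563536), with at least 1 count on 16791 to 24122 and 22876 to 23973 genes. At this depth 3 counts correspond to 0.0698 to 0.158 FPM, so lower values rest on very few reads. Libraries of a group differed far beyond sampling noise, with a chi-square per degree of freedom of at least 105 over 36 EC pairs and 64.5 over 6 WT VSMC pairs, so each counted as 1 sample. EC cultures varied more than WT VSMC: the relative standard deviation averaged 0.408 over 12262 genes in EC, 0.337 without sets 9, 11 and 13, and 0.213 over 12031 genes in WT VSMC.

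Of 17115 genes tested, 1596 (9.33%) were differentially expressed (DEG), 858 of them higher in EC (5.01%) and 738 higher in WT VSMC (4.31%). A gene was called a DEG when edgeR and DESeq2 both gave a false discovery rate (FDR, Benjamini-Hochberg) under 0.05, its log2 fold change (log2FC) was 0.64 or more in size, and 1 group or both averaged 3 FPM or more. Here log2FC is EC minus WT VSMC from edgeR, given ± its standard error, and FDR is that of edgeR's quasi-likelihood test. A difference of at least 4-fold was called for 284 genes higher in EC (1.66%) and 220 higher in WT VSMC (1.29%). Every EC library lay above every WT VSMC library for 572 genes (3.34%) and below for 730 (4.27%). The median log2FC of all genes tested was 0.05.

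Without EC sets 9, 11 and 13 the DEG rose to 3510 of 16827 (20.9%), 1832 higher in EC (10.9%) and 1678 higher in WT VSMC (9.97%). The 4-fold calls were 559 (3.32%) and 416 (2.47%), and 1550 of the 1596 DEG were still called. Of the genes called at 4-fold or more, 281 of 284 and 213 of 220 kept their call. Single libraries also moved the number, which was lowest without WT VSMC set 2 (581 DEG), was 675, 730 and 757 without sets 1, 3 and 4, and reached 2431 without EC set 13. Where a call named below was lost with an edgeR FDR under 0.05, another criterion was missed. A log2FC without 1 library is given below where the fold moved by over 1.5 times. A gene that was not called is not shown to be equal. The lists below are read against the shares of all genes called, 5.01% higher in EC and 4.31% in WT VSMC, or 10.9% and 9.97% without EC sets 9, 11 and 13.

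**Figure D2:**
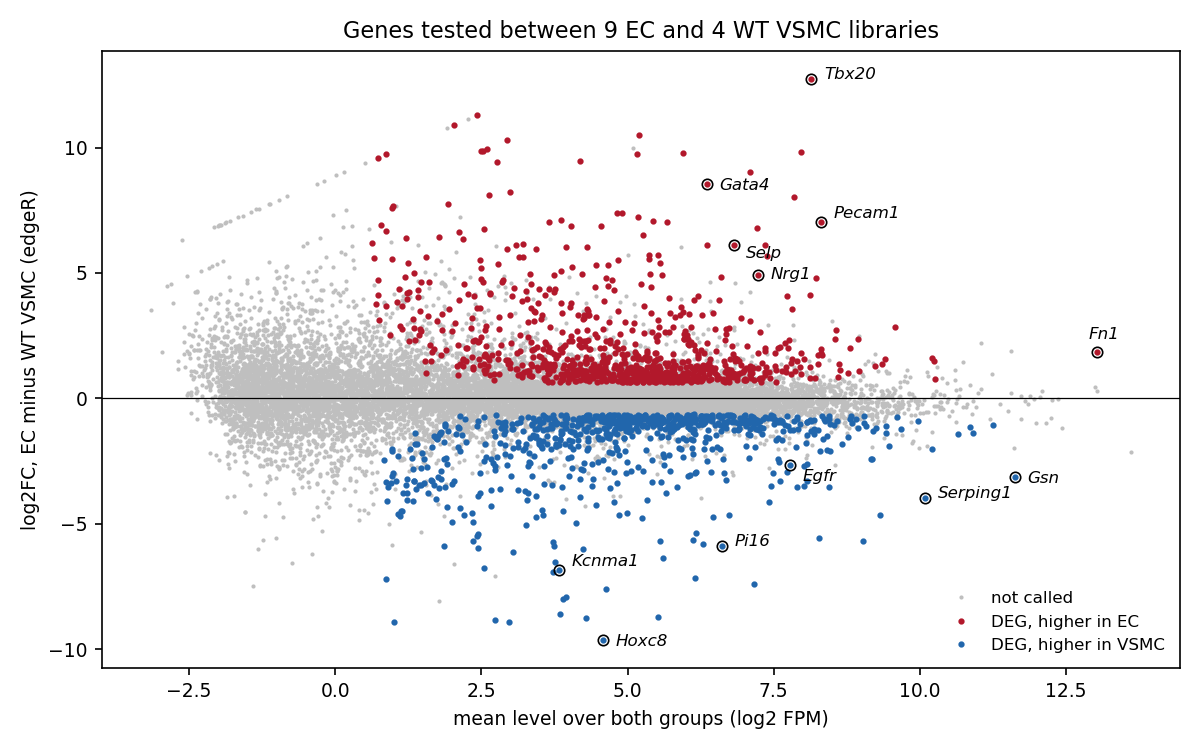
log2FC of EC minus WT VSMC (edgeR) against the mean level over both groups (log2 FPM) for the 17115 genes tested, with the 858 DEG higher in EC and the 738 higher in WT VSMC in colour. The 284 and 220 DEG of at least 4-fold lie 2 or more log2 units from 0, and the named genes at the edges reach 12.74 for Tbx20 and -9.62 for Hoxc8.

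The genes furthest above WT VSMC were heart transcription factors and endothelial genes. Tbx20, a T-box factor of the developing heart and its endocardium (ENSMUSG00000031965, GRCm39 chr9:24629434-24685599), ranged from 40.1 (set 14) to 2080 FPM (set 16, median 262) in EC and was at 0.0298, 0.203, 0.0807 and 0 FPM in WT VSMC sets 1 to 4. Its log2FC was 12.74 ± 1.76 (edgeR FDR = 0.0014). Gata4, a zinc-finger factor of heart cells (ENSMUSG00000021944, GRCm39 chr14:63436362-63509141), had the tightest difference of this group, from 48.5 (set 12) to 385 FPM (set 15, median 133) in EC against 0.119, 0.949, 0.135 and 0.54 FPM. Its log2FC was 8.56 ± 0.89 (edgeR FDR = 0.000255). Every EC library, sets 9, 11 and 13 included, lay far above all 4 aortic libraries in both genes. Tbx5, a further T-box factor of the heart, ranged from 0.369 (set 11) to 40.3 FPM (set 15, median 6.15) in EC and was at 0.0298, 0.0678, 0 and 0.108 FPM in WT VSMC. Its log2FC was 8.24 ± 1.58 (edgeR FDR = 0.00734). The log2FC of Tbx20 moved to 12.15 without EC set 16. The log2FC of Tbx20 and Gata4 moved to 13.64 and 9.29 without WT VSMC set 2. The log2FC of Tbx5 moved to 8.83 without WT VSMC set 4.

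Among the endothelial genes, Tal1, a factor of blood and endothelial precursors, ranged from 0.756 (set 9) to 177 FPM (set 14, median 84.6) against 0.0298, 0.305, 0 and 0 FPM in WT VSMC. Its log2FC was 9.74 ± 2.01 (edgeR FDR = 0.00983). Emcn, the endothelial sialomucin endomucin, ranged from 6.3 (set 9) to 1263 FPM (set 18, median 151) against 1.37, 5.42, 0.188 and 0.036 FPM, with a log2FC of 8.02 ± 2.0 (edgeR FDR = 0.0224). The low ends of both ranges came from sets 9, 11 or 13, just above the highest WT VSMC library. The other genes selected for size in this direction were Gpm6a, a neuronal and endothelial membrane glycoprotein (log2FC 9.81), Car8, an inactive member of the carbonic anhydrase family (9.8), Klhl4 (9.47), the adhesion receptor Adgrf5 (9.01) and 1110032F04Rik (8.1). All of these were DEG with groups that did not overlap. Emcn was no longer called without any 1 of WT VSMC sets 1, 3 and 4 (edgeR FDR 0.0624 to 0.0748). Klhl4 was no longer called without any 1 of WT VSMC sets 1, 2, 3 and 4 (edgeR FDR 0.0706 to 0.0754). The log2FC of Gpm6a moved to 9.15 without EC set 14. The log2FC of Klhl4 moved to 8.61 without EC set 18. The log2FC of Tal1, Emcn, Adgrf5 and 1110032F04Rik moved to 12.27, 9.71, 11.31 and 9.7 without WT VSMC set 2.

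The genes furthest below were led by the HOXC cluster. Hoxc8 (ENSMUSG00000001657, GRCm39 chr15:102898851-102902543) was at 91.7, 25.5, 52.9 and 21.9 FPM in WT VSMC sets 1 to 4 and at most 0.275 FPM in EC, with a median of 0. Its log2FC was -9.62 ± 0.86 (edgeR FDR = 0.000101). Hoxc9 was at 7.13, 11.8, 34.8 and 9.18 FPM against at most 0.192 FPM, with a log2FC of -8.93 ± 0.82 (edgeR FDR = 0.000101). Hoxc6 was at 68.7, 36.2, 48.7 and 44.4 FPM against at most 1.73 FPM, with a log2FC of -7.59 ± 1.04 (edgeR FDR = 0.00129). These genes were near 0 in every EC library, with no overlap. Folh1, the folate hydrolase also known as PSMA, was at 32, 19, 50.1 and 55.4 FPM in WT VSMC and at most 0.309 FPM in EC, with a log2FC of -8.77 ± 0.79 (edgeR FDR = 0.000101). Sfrp4, a secreted antagonist of WNT ligands, was at 305, 312, 32.3 and 489.6 FPM and at most 5.28 FPM, with a log2FC of -7.41 ± 0.88 (edgeR FDR = 0.000581). The log2FC of Hoxc8, Hoxc9 and Hoxc6 moved to -10.23, -10.25 and -9.34 without EC set 12. The log2FC of Hoxc8 moved to -10.55 without EC set 18. The log2FC of Hoxc9 moved to -8.18 without WT VSMC set 3.

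Several of these genes varied among the aortic cultures as well. Col6a6, a collagen VI chain, was at 6.5, 95, 1.78 and 261 FPM in WT VSMC sets 1 to 4 and at most 1.54 FPM in EC. Its log2FC was -8.71 ± 1.35 (edgeR FDR = 0.0024). Kng2, a kininogen, was at 56.2, 17.1, 1.1 and 40.7 FPM against at most 0.317 FPM, with a log2FC of -8.6 ± 1.05 (edgeR FDR = 0.000679). Set 3 was the lowest aortic library in both, although it still lay above all EC libraries. Eya2, a transcriptional coactivator (log2FC -8.0), Epha3, an ephrin receptor (-7.17), and Elobl (-8.82) completed the selection. The log2FC of Kng2 without EC sets 9, 11 and 13 was -10.9. Col6a6 was no longer called without WT VSMC set 2 (edgeR FDR 0.00955). The log2FC of Kng2 moved to -9.18 without EC set 11. The log2FC of Kng2 and Elobl moved to -9.25 and -9.54 without EC set 13. The log2FC of Elobl moved to -7.13 without WT VSMC set 1. The log2FC of Col6a6, Eya2 and Epha3 moved to -11.1, -9.67 and -8.39 without EC set 18. The log2FC of Col6a6 moved to -7.32 without WT VSMC set 4.

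Abundant genes differed by smaller folds. Fn1, fibronectin, the protein on which the EC were plated, ranged from 7888 (set 9) to 19213 FPM (set 14, median 11997) in EC and was at 2513, 3973, 3274 and 4724 FPM in WT VSMC, without overlap. Its log2FC was 1.86 ± 0.34 (edgeR FDR = 0.0062). In the other direction Gsn, the actin-severing protein gelsolin, was at 3866, 7266, 4293 and 7336 FPM in WT VSMC and ranged from 264 (set 14) to 1636 FPM (set 13, median 537) in EC. Its log2FC was -3.14 ± 0.38 (edgeR FDR = 0.000657). Serping1, the C1 inhibitor, was at 2244, 1955, 1115.6 and 2878 FPM against 25.5 (set 11) to 470.4 FPM (set 13, median 58.3), with a log2FC of -3.99 ± 0.66 (edgeR FDR = 0.00357). The groups lay apart in all 3 genes. The largest differences in FPM further included Aplp2 (log2FC 1.61), Clu (2.85), Txndc5 (1.48) and Ccn1 (1.58) above WT VSMC, and the lysosomal proteins Psap (-1.05) and Ctsb (-1.37) and the ferritin light chain Ftl1 (-1.43) below. Another gene overlaps 34.6% of the exon length of Ftl1, so its reads may be shared. Clu was no longer called without any 1 of EC sets 12, 15, 16 and 18 and WT VSMC sets 1, 2, 3 and 4 (edgeR FDR 0.0503 to 0.123). Txndc5 was no longer called without any 1 of WT VSMC sets 1, 2, 3 and 4 (edgeR FDR 0.0635 to 0.0802). Ccn1 was no longer called without any 1 of EC sets 12, 15 and 16 and WT VSMC sets 1, 2, 3 and 4 (edgeR FDR 0.0527 to 0.115). Psap was no longer called without any 1 of EC sets 9, 12, 14, 15, 16, 17 and 18 and WT VSMC sets 1, 2, 3 and 4 (edgeR FDR 0.0575 to 0.113).

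The genes of body position were examined as 2 lists. Of 27 HOX genes tested, 12 were higher in WT VSMC and the other 15 were not called, against 4.31% of all genes, and the median log2FC was -2.72. All 12 differed by at least 4-fold. They were Hoxa7, Hoxa9, Hoxa10, Hoxb5 to Hoxb8, Hoxc4, Hoxc6 and Hoxc8 to Hoxc10, so that all belong to paralogue groups 4 to 10, in which 21 genes were tested. None of the 5 genes of groups 1 to 3 passed both tests, nor the single gene of groups 11 to 13. By cluster, 5 of 7 HOXC genes, 4 of 8 HOXB genes and 3 of 9 HOXA genes were called. Without EC sets 9, 11 and 13, 15 of 26 were called, all higher in WT VSMC.

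The summed levels were also compared by cluster. The summed level of the HOXC genes was 191, 90.1, 156 and 101 FPM in WT VSMC sets 1 to 4 and 0 to 5.69 FPM in EC. For HOXB the sums were 207 to 401 FPM in WT VSMC and 2.37 to 106 FPM in EC, the highest in set 13. For HOXA the groups met: 164 to 220.1 FPM in WT VSMC against 10.7 to 205 FPM in EC, with sets 12 and 14 inside the aortic range. Hoxb8 was at 62.5, 47.8, 113 and 69.8 FPM in WT VSMC and ranged from 0.528 (set 11) to 13.9 FPM (set 13, median 1.07) in EC. Its log2FC was -4.79 ± 0.73 (edgeR FDR = 0.00226). Hoxa5 overlapped, at 50.1, 62.4, 59.6 and 67.8 FPM against 2.95 (set 11) to 89.1 FPM (set 14, median 8.37), with a log2FC of -1.18 ± 0.81 (edgeR FDR = 0.343), and was not called. The HOXD sums overlapped, with 0.296 to 8.79 FPM against 2 to 38.7 FPM, and Hoxd8, at 1.19, 3.42, 0.242 and 5.91 FPM against 1.64 (set 11) to 22.6 FPM (set 12, median 8.85), was not called. Its log2FC was 1.84 ± 0.84 (edgeR FDR = 0.153). The log2FC of Hoxb8 moved to -5.86 without EC set 13.

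Of 12 cardiac regional transcription factors tested, 5 were higher in EC, against 5.01% of all genes: Gata4, Tbx5 and Tbx20, given above, and Hand2 and Irx3. Hand2, a basic helix-loop-helix factor of the right ventricle and endocardium, ranged from 0 (set 14) to 160.2 FPM (set 18, median 45.9) in EC and was at 1.31, 3.83, 0.915 and 1.84 FPM in WT VSMC, with overlap. Its log2FC was 4.7 ± 1.31 (edgeR FDR = 0.035). Tbx1, a factor of the pharyngeal arches that give rise to the great arteries, went the other way, at 53, 35.9, 13.3 and 32.6 FPM in WT VSMC and 0 (sets 11, 14 and 17) to 6.86 FPM (set 15, median 0.211) in EC. Its log2FC was -4.96 ± 1.2 (edgeR FDR = 0.0199). Gata6, which heart and vascular smooth muscle share, was at 72.9, 124, 104 and 153 FPM in WT VSMC and ranged from 65.5 (set 11) to 385 FPM (set 14, median 215) in EC. Its log2FC was 0.88 ± 0.39 (edgeR FDR = 0.142), and it was not called. Nkx2-5 (29.4 FPM) and Hand1 (9.32 FPM) were found in EC set 9 and stayed below 0.5 FPM in the other 12 libraries. Hoxa7 was no longer called without any 1 of EC sets 9, 15, 16, 17 and 18 and WT VSMC sets 1, 2, 3 and 4 (edgeR FDR 0.0573 to 0.109). Hoxa9 was no longer called without any 1 of WT VSMC sets 1, 2 and 4 (edgeR FDR 0.07 to 0.0924). Hoxa10 was no longer called without any 1 of WT VSMC sets 2 and 4 (edgeR FDR 0.0602 to 0.156). Hoxc4 was no longer called without any 1 of WT VSMC sets 3 and 4 (edgeR FDR 0.0297 to 0.0333). Hand2 was no longer called without any 1 of EC sets 15 and 16 and WT VSMC sets 1, 2, 3 and 4 (edgeR FDR 0.0503 to 0.105). Irx3 was no longer called without any 1 of EC sets 9, 12, 14, 15, 16 and 18 and WT VSMC sets 1, 2 and 4 (edgeR FDR 0.0503 to 0.146). Tbx1 was no longer called without any 1 of WT VSMC sets 1 and 2 (edgeR FDR 0.0549 to 0.0632). The log2FC of Tbx1 moved to -6.59 without EC set 15.

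**Figure D3:**
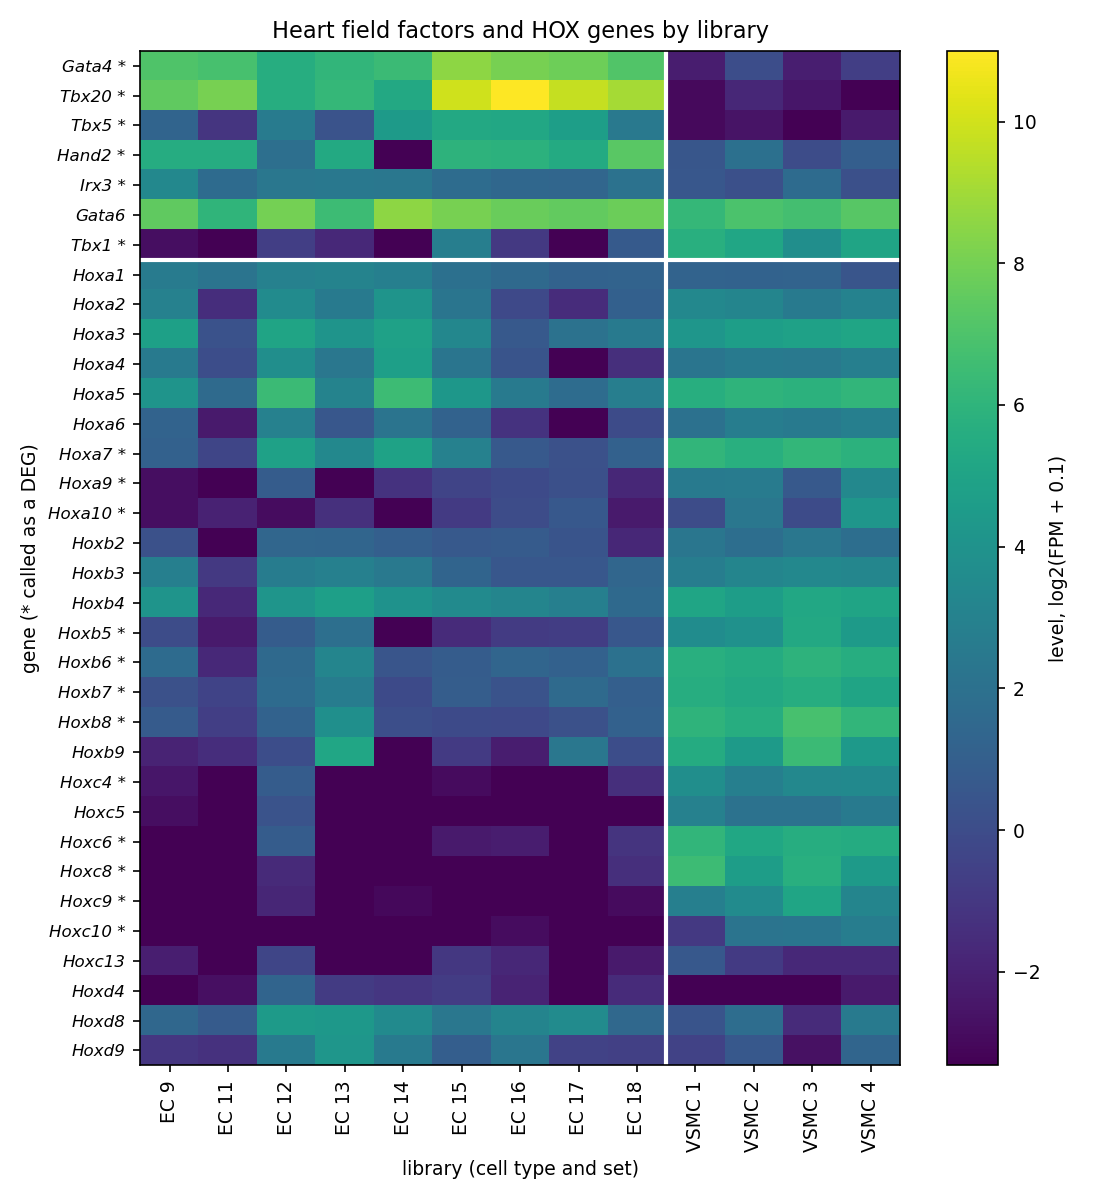
Level of 7 heart field factors and 27 HOX genes, as log2(FPM + 0.1), in each library, with EC sets to the left of the vertical line, WT VSMC sets to the right and DEG marked by an asterisk. HOXC genes are low in all 9 EC libraries, Hoxc6 at no more than 1.73 FPM, while Gata4 is at or above 48.5 FPM in every EC library and at no more than 0.949 FPM in WT VSMC.

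Endothelial identity genes were the list with the largest positive median among those with at least 20 members tested. Of 24 tested, 11 were higher in EC, against 5.01% of all genes, and all of these by at least 4-fold, with a median log2FC of 4.52. Without EC sets 9, 11 and 13, 20 of 24 were called, against 10.9% of all genes. Ptprb, the phosphatase that restrains TIE2 and VE-cadherin, ranged from 18.8 (set 9) to 588 FPM (set 12, median 319) in EC and was at 3.88, 3.49, 1.94 and 1.4 FPM in WT VSMC. Its log2FC was 6.78 ± 1.17 (edgeR FDR = 0.00433). Vwf, von Willebrand factor, ranged from 1.85 (set 9) to 394 FPM (set 14, median 47.2) against 0.686, 1.63, 0.377 and 0.432 FPM, with a log2FC of 7.02 ± 1.66 (edgeR FDR = 0.0185). Pecam1, whose product was the selection antigen and which therefore checks the isolation, ranged from 22.6 (set 9) to 1829 FPM (set 14, median 277) against 1.49, 17.1, 0.484 and 0.468 FPM. Its log2FC was 7.02 ± 1.74 (edgeR FDR = 0.022). WT VSMC set 2 was the highest aortic library for Pecam1 and also for Cdh5, VE-cadherin, at 0.597, 23.7, 0.108 and 0.828 FPM against 9.41 (set 9) to 772 FPM (set 12, median 179) in EC. The log2FC of Cdh5 was 5.69 ± 1.74 (edgeR FDR = 0.047). The log2FC of Vwf moved to 6.38 without EC set 14. The log2FC of Vwf, Pecam1 and Cdh5 moved to 7.64, 9.58 and 9.32 without WT VSMC set 2.

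Some classical markers were low or not called. Kdr, the main VEGF receptor, ranged from 0 (set 9) to 25.4 FPM (set 15, median 2.95) in EC and was at 0.269, 0.712, 0.108 and 0.18 FPM in WT VSMC. Its log2FC was 4.47 ± 1.46 (edgeR FDR = 0.0584). Nos3, the endothelial nitric oxide synthase, ranged from 0 (set 17) to 12.3 FPM (set 12, median 0.82) against 0.239, 2.34, 0.215 and 0.108 FPM. Its log2FC was 2.45 ± 1.5 (edgeR FDR = 0.285). Another gene overlaps 32.7% of its exon length. Cldn5, the endothelial claudin, did not exceed 0.581 FPM in any EC library and was at 0, 3.15, 0 and 0.108 FPM in WT VSMC, with a log2FC of -1.87 ± 1.3 (edgeR FDR = 0.349). Eng, endoglin, was abundant in both groups, with 242 (set 11) to 2287 FPM (set 15, median 537) in EC against 289, 277, 308 and 213 FPM. Its log2FC was 1.78 ± 0.61 (edgeR FDR = 0.067). Kdr and Eng passed without sets 9, 11 and 13 (log2FC 5.04 and 2.2), Nos3 and Cldn5 did not. Vwf was no longer called without any 1 of WT VSMC sets 1, 2, 3 and 4 (edgeR FDR 0.0517 to 0.0636). Pecam1 was no longer called without any 1 of WT VSMC sets 1, 3 and 4 (edgeR FDR 0.064 to 0.0739). Cdh5 was no longer called without any 1 of EC sets 12, 14, 15, 16, 17 and 18 and WT VSMC sets 1, 3 and 4 (edgeR FDR 0.0533 to 0.121). The log2FC of Cldn5 moved to 2.56 without WT VSMC set 2, with a turn of its direction.

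Of 20 transcription factors known from endothelium, 7 were higher in EC and 1 in WT VSMC, against 5.01% and 4.31% of all genes, with a median log2FC of 2.31. Ets1, an ETS factor, ranged from 34.5 (set 13) to 114 FPM (set 18, median 62.3) in EC against 26.2, 23.5, 27.9 and 14.4 FPM, with a log2FC of 1.49 ± 0.29 (edgeR FDR = 0.00798). Sox7, a factor of the SOX17 family, ranged from 1.97 (set 9) to 272 FPM (set 18, median 25.2) against 0.269, 1.08, 0.0538 and 0.54 FPM, with a log2FC of 7.23 ± 1.67 (edgeR FDR = 0.016). The groups lay apart in both genes, Ets1 in a narrow range and Sox7 over a wide range. Erg, another ETS factor, was at 0 in EC set 17 and up to 117 FPM in EC, with a log2FC of 4.09 ± 1.47 (edgeR FDR = 0.0788), and was not called. Klf4, a Krüppel-like factor active in both endothelium and dedifferentiated smooth muscle, was at 249, 201, 173 and 173 FPM in WT VSMC and ranged from 28.1 (set 11) to 114 FPM (set 9, median 77.6) in EC. Its log2FC was -1.44 ± 0.29 (edgeR FDR = 0.00931). Fli1 (log2FC 3.34), Lyl1 (4.63), Hhex (6.89) and Mecom (2.16) were the other members called besides Tal1. Sox7 and Hhex were no longer called without any 1 of WT VSMC sets 1, 3 and 4 (edgeR FDR 0.053 to 0.0691). Fli1 and Lyl1 were no longer called without any 1 of WT VSMC sets 1, 2, 3 and 4 (edgeR FDR 0.0645 to 0.0848). Mecom was no longer called without WT VSMC set 1 (edgeR FDR 0.0533). The log2FC of Sox7 moved to 6.62 without EC set 18. The log2FC of Sox7 and Hhex moved to 7.99 and 8.09 without WT VSMC set 2.

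Few contractile genes of smooth muscle were called. Of 18 tested, 2 were higher in EC and 0 in WT VSMC by both edgeR and DESeq2, with a median log2FC of -0.06, and at an unadjusted edgeR p under 0.05 there were 2 in each direction. DESeq2 alone called 2 in WT VSMC at its FDR of 0.05. One DEG was Vcl, vinculin, which ranged from 316 (set 16) to 505 FPM (set 9, median 367) in EC against 150.2, 136, 233 and 137 FPM. Its log2FC was 1.26 ± 0.21 (edgeR FDR = 0.00366). The second was Actn1, the non-muscle alpha-actinin, which ranged from 395 (set 18) to 711 FPM (set 16, median 576) against 341, 232, 361 and 226 FPM. Its log2FC was 1.02 ± 0.22 (edgeR FDR = 0.0109). Both encode proteins of focal adhesions that many cells use. Acta2, smooth muscle actin, was at 819.9, 355, 1017 and 233 FPM in WT VSMC and ranged from 171 (set 18) to 3739 FPM (set 13, median 496) in EC. Its log2FC was 0.88 ± 0.81 (edgeR FDR = 0.488). EC sets 13 and 11 were the highest of all 13 libraries for Acta2. Without EC sets 9, 11 and 13, 4 members, among them Myl9 (log2FC -2.02) and Tpm2 (-2.39), were higher in WT VSMC.

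Some fibroblast genes were higher in WT VSMC. Of 20 tested, 7 were higher in WT VSMC, against 4.31% of all genes, and the other 13 were not called. The median log2FC was -1.21. Without EC sets 9, 11 and 13 the number called was 12, against 9.97% of all genes higher in WT VSMC. Pi16, a marker of adventitial fibroblasts, was at 86, 166, 36.4 and 486 FPM in WT VSMC and ranged from 0.645 (set 15) to 8.08 FPM (set 13, median 2.99) in EC. Its log2FC was -5.9 ± 0.7 (edgeR FDR = 0.000581). Thy1, a surface glycoprotein of mesenchymal cells, was at 573, 528, 504 and 303 FPM against 1.12 (set 14) to 144 FPM (set 13, median 37.6), with a log2FC of -3.51 ± 0.86 (edgeR FDR = 0.0208). Dpt, dermatopontin, was at 78, 352, 336 and 521 FPM against 0.698 (set 14) to 70 FPM (set 13, median 27.8), with a log2FC of -3.49 ± 0.89 (edgeR FDR = 0.0252). No EC library reached the aortic range in these genes, sets 11 and 13 included. Col1a1, a chain of type I collagen, overlapped, at 2942, 5401, 1750 and 7269 FPM against 51.9 (set 14) to 7834 FPM (set 13, median 1829), with a log2FC of -0.83 ± 0.88 (edgeR FDR = 0.556), and was not called. Tcf21, a factor of heart fibroblasts and epicardium, was at most 2.92 FPM in WT VSMC and up to 290.3 FPM in EC, with a log2FC of 5.7 ± 1.88 (edgeR FDR = 0.0606), and was not called. The log2FC of Pi16 moved to -4.89 without WT VSMC set 4.

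Genes of pericytes were called in both directions. Of 9 tested, 1 was higher in EC and 3 were higher in WT VSMC. Mcam, the adhesion molecule CD146, was the gene higher in EC, with a log2FC of 3.34 ± 0.85 (edgeR FDR = 0.0246). Anpep, aminopeptidase N, was at 62.8, 209.7, 32.9 and 512 FPM against 0.492 (set 16) to 21.4 FPM (set 9, median 6.81), with a log2FC of -4.67 ± 0.73 (edgeR FDR = 0.00262). Abcc9, a subunit of the vascular potassium channel that ATP closes, was at 1.58, 9.56, 0.0807 and 24.3 FPM against at most 1.4 FPM in EC, with a log2FC of -4.65 ± 1.1 (edgeR FDR = 0.0186). WT VSMC set 3 lay within the EC range of Abcc9. Of 20 smooth muscle and mesenchymal transcription factors, Tead1, the partner of YAP, was higher in EC, with a log2FC of 1.41 ± 0.24 (edgeR FDR = 0.00432). Nfatc4, which is controlled by calcineurin, was higher in WT VSMC, with a log2FC of -2.01 ± 0.35 (edgeR FDR = 0.00412). Twist2 was also higher in WT VSMC, with a log2FC of -2.0 ± 0.59 (edgeR FDR = 0.0417). Actn1 was no longer called without WT VSMC set 2 (edgeR FDR 0.0556). Thy1 was no longer called without any 1 of WT VSMC sets 1 and 2 (edgeR FDR 0.0564 to 0.0566). Dpt was no longer called without any 1 of WT VSMC sets 2, 3 and 4 (edgeR FDR 0.0581 to 0.0748). Mcam was no longer called without any 1 of WT VSMC sets 1, 2, 3 and 4 (edgeR FDR 0.0637 to 0.0787). Abcc9 was no longer called without any 1 of WT VSMC sets 2 and 4 (edgeR FDR 0.0511 to 0.0937). Twist2 was no longer called without any 1 of EC sets 9, 12, 14, 15, 17 and 18 and WT VSMC sets 1, 2, 3 and 4 (edgeR FDR 0.051 to 0.11). The log2FC of Abcc9 moved to -5.35 without EC set 14. The log2FC of Abcc9 and Anpep moved to -3.42 and -3.67 without WT VSMC set 4.

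Promoter sequences (RefSeq, GRCm38.p6, matched by symbol for 11342 of the 17115 genes tested) were searched on both strands for exact matches to the CArG box (CC, then 6 bases that are each A or T, then GG) and for the ETS letters CCGGAAGT, in the 250 bases before and 50 after each start. The CArG box was present for 6 of 199 genes at least 4-fold higher in EC (3.02%), 2 of 154 higher in WT VSMC (1.3%) and 179 of all genes (1.58%). The ETS letters were present for 1.01% and 0.649% of these 2 groups and 8.53% of all genes. Among all DEG the shares were 4.29% for those higher in EC and 5.68% for those higher in WT VSMC. The shares were thus below that of all genes in both directions, and they were not matched for the base composition of promoters. Among the 16 smooth muscle contractile genes with a promoter in the table, the CArG box stood in the 250 bases before the start of Vcl, which was higher in EC, and of Myl9, which was not called. Their sequences are printed 5′ to 3′ with the box in capitals, beside those of Acta2 and Emcn, whose windows hold no exact match to either. Sequences that differ from the CArG box by a base were not searched. The printed Acta2 window holds such sequences, among them ccctatatgg and ccttgtttgg. A match is a description of these letters and not a site of binding.
Vcl (chr14:20929148-20929397, plus strand): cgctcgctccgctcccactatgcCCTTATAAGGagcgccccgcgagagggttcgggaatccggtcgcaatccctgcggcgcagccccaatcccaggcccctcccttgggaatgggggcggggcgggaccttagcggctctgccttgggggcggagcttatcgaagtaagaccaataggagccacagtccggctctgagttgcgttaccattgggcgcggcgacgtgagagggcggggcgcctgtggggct
Myl9 (chr2:156775214-156775463, plus strand): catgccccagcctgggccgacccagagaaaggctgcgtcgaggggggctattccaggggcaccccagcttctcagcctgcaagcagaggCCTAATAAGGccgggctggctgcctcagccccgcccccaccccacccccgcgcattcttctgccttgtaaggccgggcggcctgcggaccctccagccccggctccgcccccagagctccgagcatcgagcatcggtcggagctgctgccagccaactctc
Acta2 (chr19:34255374-34255623, minus strand): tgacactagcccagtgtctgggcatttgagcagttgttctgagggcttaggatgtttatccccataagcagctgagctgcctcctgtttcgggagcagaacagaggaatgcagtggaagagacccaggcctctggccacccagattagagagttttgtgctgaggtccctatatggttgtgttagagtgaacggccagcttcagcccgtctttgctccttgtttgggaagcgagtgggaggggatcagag
Emcn (chr3:137340828-137341077, plus strand): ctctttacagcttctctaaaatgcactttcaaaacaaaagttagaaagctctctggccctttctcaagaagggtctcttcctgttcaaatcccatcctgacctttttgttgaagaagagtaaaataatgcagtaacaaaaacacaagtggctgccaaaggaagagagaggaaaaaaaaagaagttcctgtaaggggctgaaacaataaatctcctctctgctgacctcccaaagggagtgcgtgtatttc

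Some ligands, receptors and feedback genes of TGF-beta and BMP signalling were higher in EC. In this pathway secreted ligands join type I and type II receptors, which phosphorylate SMAD proteins, and the inhibitory Smad6 and Smad7 are induced in return. Of 10 ligands tested, 3 were higher in EC. Gdf6 ranged from 83.7 (set 9) to 468 FPM (set 18, median 223) in EC against 41.1, 19.6, 27.2 and 28 FPM in WT VSMC, with a log2FC of 3.08 ± 0.52 (edgeR FDR = 0.00386). Tgfb2 ranged from 50.9 (set 11) to 195 FPM (set 14, median 115) against 45.5, 22.8, 22.3 and 12.8 FPM, with a log2FC of 2.14 ± 0.4 (edgeR FDR = 0.00692). Bmp6 ranged from 42.4 (set 9) to 1088 FPM (set 15, median 646) against 65.5, 13.9, 31.7 and 9.18 FPM, with a log2FC of 4.12 ± 1.03 (edgeR FDR = 0.023). The groups lay apart for Gdf6 and Tgfb2 and overlapped for Bmp6. Of 11 receptors, the type II receptor Bmpr2 was higher in EC, from 149.6 (set 13) to 314 FPM (set 15, median 223) against 104, 78.9, 91.5 and 117 FPM. Its log2FC was 1.24 ± 0.2 (edgeR FDR = 0.00331). Tgfbr1 was higher in EC as well, with a log2FC of 1.03 ± 0.31 (edgeR FDR = 0.0472). The type I receptor Bmpr1b was higher in WT VSMC, with a log2FC of -3.23 ± 0.88 (edgeR FDR = 0.0318). The log2FC of Bmpr1b moved to -3.93 without EC set 13. The log2FC of Bmp6 moved to 4.83 without WT VSMC set 1.

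Of 10 feedback and target genes, 3 were higher in EC and all 3 were SMAD genes. Smad7 ranged from 52.4 (set 11) to 291 FPM (set 16, median 182) against 46.3, 28, 34.8 and 27.1 FPM, with a log2FC of 2.31 ± 0.46 (edgeR FDR = 0.00809). Smad6 ranged from 107 (set 11) to 561 FPM (set 15, median 313) against 96.6, 73.9, 79 and 53.6 FPM, with a log2FC of 2.01 ± 0.44 (edgeR FDR = 0.0128). Smad9 showed a smaller difference (log2FC 1.13). Every EC library lay above every aortic library in these genes. The lncRNA Gm20544, whose annotated gene lies beside Smad7, ranged from 11.5 (set 13) to 27.8 FPM (set 15, median 20.8) against 6.89, 4, 4.41 and 2.56 FPM. Its log2FC was 2.16 ± 0.32 (edgeR FDR = 0.00204). Bmp6 was no longer called without any 1 of WT VSMC sets 2, 3 and 4 (edgeR FDR 0.0692 to 0.0803). Tgfbr1 was no longer called without any 1 of EC sets 9, 12, 14, 15, 16, 17 and 18 and WT VSMC sets 1, 2, 3 and 4 (edgeR FDR 0.0546 to 0.142). Bmpr1b was no longer called without any 1 of EC sets 15 and 16 and WT VSMC sets 1, 2, 3 and 4 (edgeR FDR 0.0521 to 0.0912). Smad6 was no longer called without any 1 of WT VSMC sets 2 and 4 (edgeR FDR 0.0501 to 0.0511). Smad9 was no longer called without any 1 of WT VSMC sets 1, 2, 3 and 4 (edgeR FDR 0.0736 to 0.0861).

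In the Notch pathway, in which ligands on one cell activate receptors on its neighbour, Jag1 was the ligand called of 4 tested, ranging from 129.7 (set 11) to 562 FPM (set 15, median 341) in EC against 88.3, 93.6, 57.2 and 57.6 FPM. Its log2FC was 2.19 ± 0.36 (edgeR FDR = 0.00331). Notch1 was the receptor called of 4, with a log2FC of 2.86 ± 0.7 (edgeR FDR = 0.0213). In VEGF and angiopoietin signalling, the coreceptor Nrp1 was higher in EC, with a log2FC of 1.59 ± 0.46 (edgeR FDR = 0.0386). The ligand Vegfb was higher in WT VSMC, at 118, 133, 156 and 130.5 FPM against 19.4 (set 17) to 107 FPM (set 13, median 37.7), with a log2FC of -1.46 ± 0.33 (edgeR FDR = 0.0136). Angpt2, a ligand of TIE2 known for its release from endothelium, was higher in WT VSMC, at 367, 469.5, 484 and 517 FPM against 6.44 (set 11) to 222 FPM (set 14, median 36.7). Its log2FC was -2.62 ± 0.65 (edgeR FDR = 0.022). Another gene overlaps 70.7% of its exon length. Notch1 was no longer called without any 1 of WT VSMC sets 1, 2, 3 and 4 (edgeR FDR 0.054 to 0.0739). Nrp1 was no longer called without any 1 of EC sets 15, 16, 17 and 18 and WT VSMC sets 1, 2, 3 and 4 (edgeR FDR 0.0529 to 0.114). Angpt2 was no longer called without any 1 of WT VSMC sets 2, 3 and 4 (edgeR FDR 0.055 to 0.0597).

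The EGFR family includes the receptor that the study deletes in part of its VSMC. Of 3 receptors tested, 1 was higher in WT VSMC and the other 2 were not called. At an unadjusted edgeR p under 0.05, and by DESeq2's FDR alone, 2 were higher in WT VSMC. Erbb3, which was not called, had the lowest log2FC of the list, -3.68. Egfr, the receptor of EGF (ENSMUSG00000020122, GRCm39 chr11:16702198-16868158), was at 277, 320.1, 423 and 498 FPM in WT VSMC sets 1 to 4 and ranged from 2.17 (set 16) to 146 FPM (set 13, median 38.4) in EC. Its log2FC was -2.64 ± 0.78 (edgeR FDR = 0.0424). EC sets 9, 11 and 13 had 136 to 146 FPM, the 3 highest EC values, and without them the log2FC was -4.11. The lowest values were those of sets 16 and 15, at 2.17 and 7.37 FPM, from the animals that also gave VSMC labelled as knockout, and set 18 had 11.1 FPM. Without sets 15 and 16 the log2FC was -2.3 (edgeR FDR = 0.0409). Erbb2, the common partner receptor, did not differ detectably, at 30.1, 50.7, 39 and 49.6 FPM against 30.6 (set 16) to 62.8 FPM (set 13, median 46.5). Its log2FC was 0.08 ± 0.2 (edgeR FDR = 0.821). The log2FC of Erbb2 moved to -0.06 without WT VSMC set 1, with a turn of its direction.

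Of 8 ligands of the family tested, 4 were higher in EC and the other 4 were not called. Nrg1, neuregulin 1, which signals through ERBB3 and ERBB4 from cardiac endothelium to muscle, ranged from 46.5 (set 11) to 743 FPM (set 18, median 213) in EC against 11.4, 8.68, 14.5 and 3.67 FPM. Its log2FC was 4.92 ± 0.8 (edgeR FDR = 0.00317). Hbegf, heparin-binding EGF, ranged from 20.3 (set 9) to 166 FPM (set 15, median 58.2) against 12.4, 8.95, 16.4 and 6.48 FPM, with a log2FC of 2.59 ± 0.6 (edgeR FDR = 0.0161). Neither overlapped. Tgfa (log2FC = 2.72 ± 0.72, edgeR FDR = 0.0289) and Ereg, epiregulin (log2FC = 1.61 ± 0.36, edgeR FDR = 0.0148), were higher in EC with overlap. Egfr was no longer called without any 1 of EC sets 12, 14, 15, 17 and 18 and WT VSMC sets 1, 2, 3 and 4 (edgeR FDR 0.0567 to 0.102). Hbegf was no longer called without any 1 of WT VSMC sets 1, 2 and 4 (edgeR FDR 0.0528 to 0.0637). Tgfa was no longer called without any 1 of WT VSMC sets 1, 3 and 4 (edgeR FDR 0.0884 to 0.0928). Ereg was no longer called without any 1 of WT VSMC sets 2 and 3 (edgeR FDR 0.0563 to 0.0572). The log2FC of Tgfa moved to 3.47 without WT VSMC set 2.

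**Figure D4:**
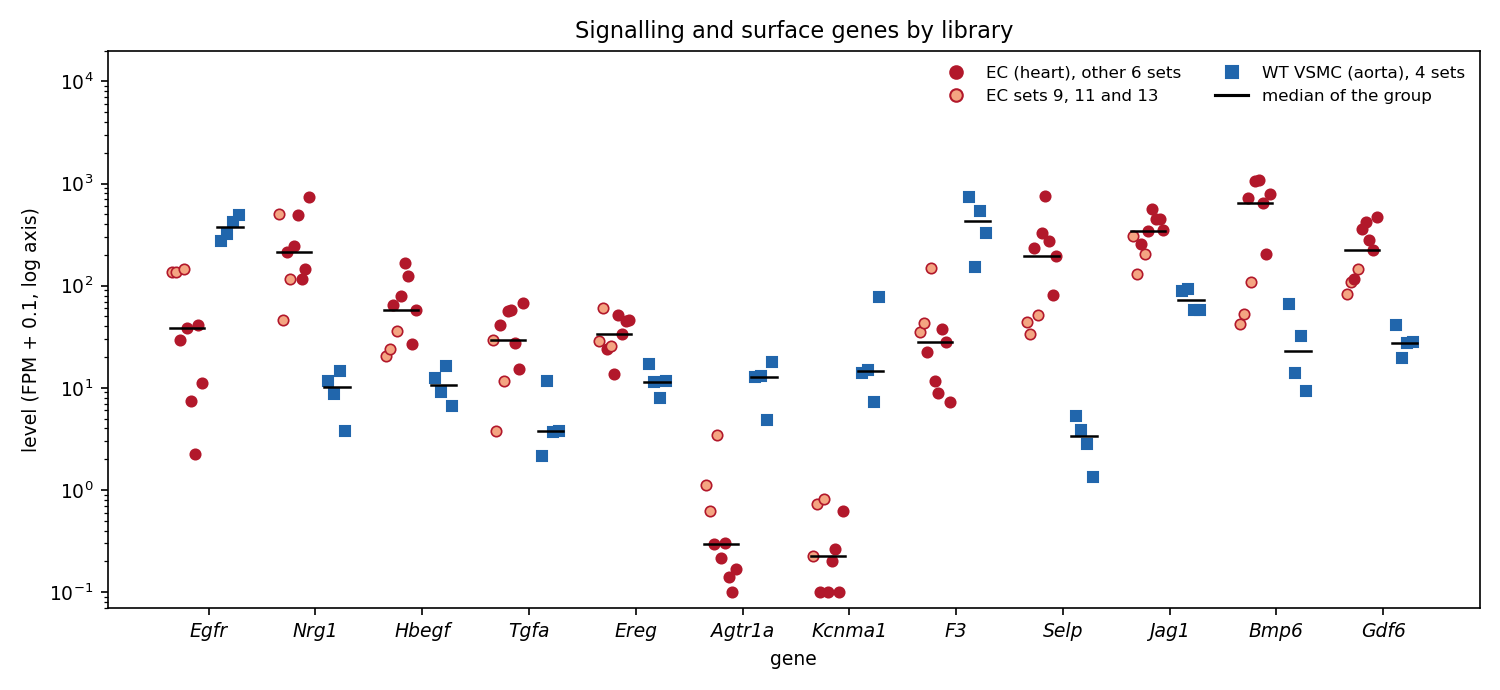
Level of 12 genes of signalling and the cell surface (FPM + 0.1, log axis) in each library, with EC as circles (pale for sets 9, 11 and 13), WT VSMC as squares and group medians as lines. Egfr and Agtr1a are higher in all 4 WT VSMC libraries than in any EC library, while Nrg1, Hbegf, Selp, Jag1 and Gdf6 are lower in all 4.

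Some receptors of the humoral stressors used in the study were higher in WT VSMC. Of 10 angiotensin and adrenergic receptor genes tested, 3 were higher in WT VSMC and the other 7 were not called. Agtr1a, the type 1 angiotensin II receptor, was at 12.6, 12.9, 4.79 and 17.8 FPM in WT VSMC and ranged from 0 (set 17) to 3.38 FPM (set 13, median 0.192) in EC. Its log2FC was -4.3 ± 0.99 (edgeR FDR = 0.0164). Without sets 9, 11 and 13 it was -6.79. Agtr2, the type 2 receptor, was at 2.51, 10.6, 0.619 and 15 FPM against at most 0.652 FPM, with a log2FC of -5.89 ± 1.07 (edgeR FDR = 0.00565). Adrb3, a beta receptor, was at 7.73, 1.49, 4.76 and 1.55 FPM against at most 1.78 FPM. Its log2FC was -2.02 ± 0.57 (edgeR FDR = 0.0371). Another gene overlaps 44.4% of its exon length. Adra1d, the alpha receptor of large arteries, overlapped, at 42, 20.1, 40.9 and 12 FPM against 0.512 (set 14) to 42.7 FPM (set 13, median 8.69), with a log2FC of -1.34 ± 0.72 (edgeR FDR = 0.219), and was not called. The log2FC of Agtr1a moved to -5.5 without EC set 13. The log2FC of Agtr2 moved to -7.09 without EC set 18. The log2FC of Agtr2 moved to -5.25 without WT VSMC set 4.

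Other vasoactive genes differed gene by gene. Edn1, endothelin 1, ranged from 14.3 (set 11) to 458 FPM (set 12, median 51.9) in EC against 6.36, 19.9, 11.7 and 8.75 FPM, with a log2FC of 3.93 ± 1.13 (edgeR FDR = 0.0383). Ece1, the enzyme that activates it, ranged from 206 (set 11) to 1733 FPM (set 15, median 802) against 191, 195, 66.4 and 183 FPM, with a log2FC of 2.38 ± 0.62 (edgeR FDR = 0.0261). Ptgir, the prostacyclin receptor, was at 22.6, 20.9, 9.47 and 17.1 FPM in WT VSMC against 0.674 (set 14) to 15.4 FPM (set 11, median 1.35), with a log2FC of -2.3 ± 0.69 (edgeR FDR = 0.0448). Of 11 genes of nitric oxide and cGMP signalling, 0 passed both tests, although 3 were higher in EC and 1 in WT VSMC at an unadjusted edgeR p under 0.05, and the same numbers passed DESeq2's FDR alone. Among ion channels of smooth muscle, Kcnma1, the large calcium-activated potassium channel, was at 13.9, 14.9, 7.16 and 76.7 FPM in WT VSMC against at most 0.719 FPM in EC. Its log2FC was -6.85 ± 0.97 (edgeR FDR = 0.00154). Itpr1, a calcium release channel, ranged from 48 (set 13) to 214 FPM (set 15, median 138) in EC against 26.5, 37.6, 26 and 26.5 FPM, with a log2FC of 2.21 ± 0.38 (edgeR FDR = 0.00407). Agtr1a was no longer called without WT VSMC set 4 (edgeR FDR 0.0501). Adrb3 was no longer called without any 1 of EC sets 9, 12, 15 and 18 and WT VSMC sets 1, 2 and 3 (edgeR FDR 0.051 to 0.174). Edn1 was no longer called without any 1 of EC sets 12, 15 and 18 and WT VSMC sets 1, 2, 3 and 4 (edgeR FDR 0.0534 to 0.112). Ece1 was no longer called without any 1 of WT VSMC sets 1, 2, 3 and 4 (edgeR FDR 0.0702 to 0.0819). Ptgir was no longer called without any 1 of EC sets 9, 12, 14, 15, 16, 17 and 18 and WT VSMC sets 1, 2, 3 and 4 (edgeR FDR 0.0528 to 0.117). Kcnma1 was no longer called without WT VSMC set 3 (edgeR FDR 0.002). The log2FC of Ptgir moved to -3.07 without EC set 11. The log2FC of Kcnma1 moved to -5.6 without WT VSMC set 4.

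At the cell surface, 4 of 10 leukocyte adhesion genes and 6 of 18 junction genes were higher in EC. Selp, P-selectin, which tethers leukocytes to activated endothelium, ranged from 33.6 (set 11) to 759.7 FPM (set 15, median 194) in EC against 5.19, 3.76, 2.72 and 1.22 FPM. Its log2FC was 6.1 ± 1.02 (edgeR FDR = 0.00358). Sele, E-selectin, ranged from 0.966 (set 9) to 44.8 FPM (set 12, median 5.53) against 0.0895, 0.509, 0.0807 and 0.288 FPM, with a log2FC of 5.97 ± 1.37 (edgeR FDR = 0.016). Both selectins lay apart in the groups. Vcam1 (log2FC = 0.64 ± 0.37, edgeR FDR = 0.251) and Icam1 (log2FC = 0.43 ± 0.82, edgeR FDR = 0.761) were abundant in both groups and not called. Among junction genes, Cdh13, T-cadherin, ranged from 32.7 (set 11) to 917 FPM (set 14, median 344) in EC against 23.3, 72.4, 20.6 and 24.7 FPM, with a log2FC of 3.56 ± 0.74 (edgeR FDR = 0.00991). Gja4, a connexin of arterial endothelium, ranged from 1.11 (set 11) to 137 FPM (set 14, median 35.4) against 0.656, 3.05, 2.29 and 0.9 FPM, with a log2FC of 4.8 ± 1.25 (edgeR FDR = 0.0272). F3, tissue factor, the starter of coagulation, was at 732, 152, 539 and 330.0 FPM in WT VSMC and ranged from 7.14 (set 18) to 149 FPM (set 13, median 27.9) in EC. Its log2FC was -3.53 ± 0.66 (edgeR FDR = 0.00676). Sele was no longer called without any 1 of WT VSMC sets 1, 3 and 4 (edgeR FDR 0.051 to 0.0591). Gja4 was no longer called without any 1 of WT VSMC sets 1, 2, 3 and 4 (edgeR FDR 0.0689 to 0.0874). The log2FC of F3 moved to -4.18 without EC set 13. The log2FC of Sele and Cdh13 moved to 6.63 and 4.17 without WT VSMC set 2.

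Matrix genes were examined by class, against 5.01% of all genes higher in EC and 4.31% in WT VSMC. None of 11 fibrillar collagen genes passed both tests, with 1 higher in EC at an unadjusted edgeR p under 0.05 and by DESeq2's FDR alone. Of 22 basement membrane genes, 4 were higher in EC and 2 in WT VSMC. Lamb1, a laminin beta chain, ranged from 411 (set 16) to 587 FPM (set 11, median 486) in EC against 203, 305, 266 and 326 FPM, with a log2FC of 0.86 ± 0.17 (edgeR FDR = 0.00881). Lama2, the laminin chain of muscle, was at 45.8, 85.1, 72.9 and 85.3 FPM in WT VSMC against 2.41 (set 13) to 25.1 FPM (set 17, median 12.7). Its log2FC was -2.44 ± 0.54 (edgeR FDR = 0.0131). Both laminins separated the groups, in opposite directions. Of 18 elastic fibre genes, 2 were higher in WT VSMC (7 without EC sets 9, 11 and 13). Mfap2, a microfibril protein, was at 56, 107, 21.5 and 160.4 FPM against 1.83 (set 15) to 30.6 FPM (set 13, median 5.77), with a log2FC of -3.34 ± 0.63 (edgeR FDR = 0.00684). Emilin2, a glycoprotein of elastic fibres, was the other, with a log2FC of -2.34 ± 0.62 (edgeR FDR = 0.0283). Of 18 integrins, 4 were higher in EC, Itga3 with the smallest FDR of the list, with a log2FC of 3.11 ± 0.63 (edgeR FDR = 0.00876). Itga7, which binds laminin in muscle, was higher in WT VSMC, with a log2FC of -1.58 ± 0.4 (edgeR FDR = 0.0234). Emilin2 and Itga7 were no longer called without any 1 of WT VSMC sets 1, 2, 3 and 4 (edgeR FDR 0.0564 to 0.0742). The log2FC of Emilin2 moved to -2.94 without EC set 13.

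Genes that handle fatty acids and glucose, the metabolic stressors of the study, were tested as 2 lists. Of 16 genes of fatty acid uptake and binding, 2 were higher in WT VSMC, against 4.31% of all genes, and the other 14 were not called. At an unadjusted edgeR p under 0.05, 4 were higher in EC and 2 in WT VSMC. Without EC sets 9, 11 and 13, Acsl4, Acsl5 and Pparg were called higher in EC and 4 members in WT VSMC. The shares of all genes were then 10.9% and 9.97%. Slc27a3, an acyl-CoA synthetase of the fatty acid transporter family, was at 66.3, 83.7, 55.4 and 49.9 FPM in WT VSMC and ranged from 11.8 (set 13) to 21.1 FPM (set 12, median 15.4) in EC. Its log2FC was -2.05 ± 0.18 (edgeR FDR = 0.000101). Cd36, the fatty acid receptor of heart capillaries, did not exceed 2.09 FPM in EC or 1.73 FPM in WT VSMC, with a log2FC of -1.05 ± 1.21 (edgeR FDR = 0.586), and was not called. Fabp4, a fatty acid binding protein, was at 13.9, 15, 171 and 12.4 FPM against 0.328 (set 16) to 102 FPM (set 18, median 1.82), with a log2FC of -0.98 ± 1.34 (edgeR FDR = 0.657), and was not called. Of 12 genes of glucose entry, Pdk4, a kinase that shuts pyruvate out of oxidation, was higher in EC, from 50.6 (set 17) to 313 FPM (set 14, median 106) against 21.4, 40.7, 46.8 and 32.6 FPM. Its log2FC was 1.8 ± 0.48 (edgeR FDR = 0.0288). Its relative Pdk1 was higher in EC too, with a log2FC of 0.71 ± 0.16 (edgeR FDR = 0.0133). The transporter Slc2a8 was higher in WT VSMC, with a log2FC of -0.65 ± 0.17 (edgeR FDR = 0.0256). The log2FC of Fabp4 moved to 0.97 without WT VSMC set 3, with a turn of its direction.

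Of 20 interferon and MHC class I genes, 5 were higher in WT VSMC and the other 15 were not called. Tap2, a subunit of the peptide transporter, was at 53.7, 63.3, 73 and 64.5 FPM in WT VSMC and ranged from 26.2 (set 16) to 43.8 FPM (set 11, median 36) in EC. Its log2FC was -0.92 ± 0.16 (edgeR FDR = 0.00469). Irf7, a factor that interferon induces, was at 41.6, 60.4, 30.7 and 17.4 FPM against 6.8 (set 12) to 24.6 FPM (set 15, median 11.5), with a log2FC of -1.54 ± 0.34 (edgeR FDR = 0.0137). Of 20 cell cycle genes, only Mcm2, a subunit of the replicative helicase, was called, higher in EC, with a log2FC of 0.94 ± 0.26 (edgeR FDR = 0.0349). The median log2FC of the list was 1.52, and without EC sets 9, 11 and 13 the number called was 13. The summed level of the list was 98.6 to 205 FPM in WT VSMC and 103 to 688 FPM in EC, with sets 9 and 13 at the low end and sets 16, 17 and 18 at the high end.

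Of 1664 lncRNA tested, 26 were higher in EC (1.56%) and 21 in WT VSMC (1.26%), lower shares than the 5.01% and 4.31% of all genes. A DEG had to average 3 FPM or more in a group, and the shares were not matched for level. They therefore do not show that lncRNA differed less. A530020G20Rik was at 15.1, 13.7, 42.9 and 33.8 FPM in WT VSMC and at most 1.86 FPM in EC, with a log2FC of -5.9 ± 1.07 (edgeR FDR = 0.00559). Without sets 9, 11 and 13 it was -7.87. Gm30025 showed a small but tight difference, at 10.8, 14.1, 15.7 and 11.7 FPM against 1.92 (set 18) to 4.28 FPM (set 9, median 3.11), with a log2FC of -1.98 ± 0.22 (edgeR FDR = 0.000445). Besides Gm20544, the lncRNA selected for size above WT VSMC was 2610005L07Rik (log2FC 1.1), and Gm28875 (-1.38) was the other selected below. Pdk4, 2610005L07Rik and Gm28875 were no longer called without any 1 of WT VSMC sets 1, 2, 3 and 4 (edgeR FDR 0.0552 to 0.109). Pdk1 was no longer called without any 1 of WT VSMC sets 2 and 4 (edgeR FDR 0.0538 to 0.0629). Slc2a8 was no longer called without any 1 of EC sets 12, 16, 17 and 18 and WT VSMC sets 1, 2 and 3 (edgeR FDR 0.0339 to 0.0841). Irf7 was no longer called without WT VSMC set 2 (edgeR FDR 0.0751). Mcm2 was no longer called without any 1 of EC sets 12, 15 and 16 and WT VSMC sets 1, 2, 3 and 4 (edgeR FDR 0.052 to 0.109). The log2FC of A530020G20Rik moved to -6.63 without EC set 13.

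**Figure D5:**
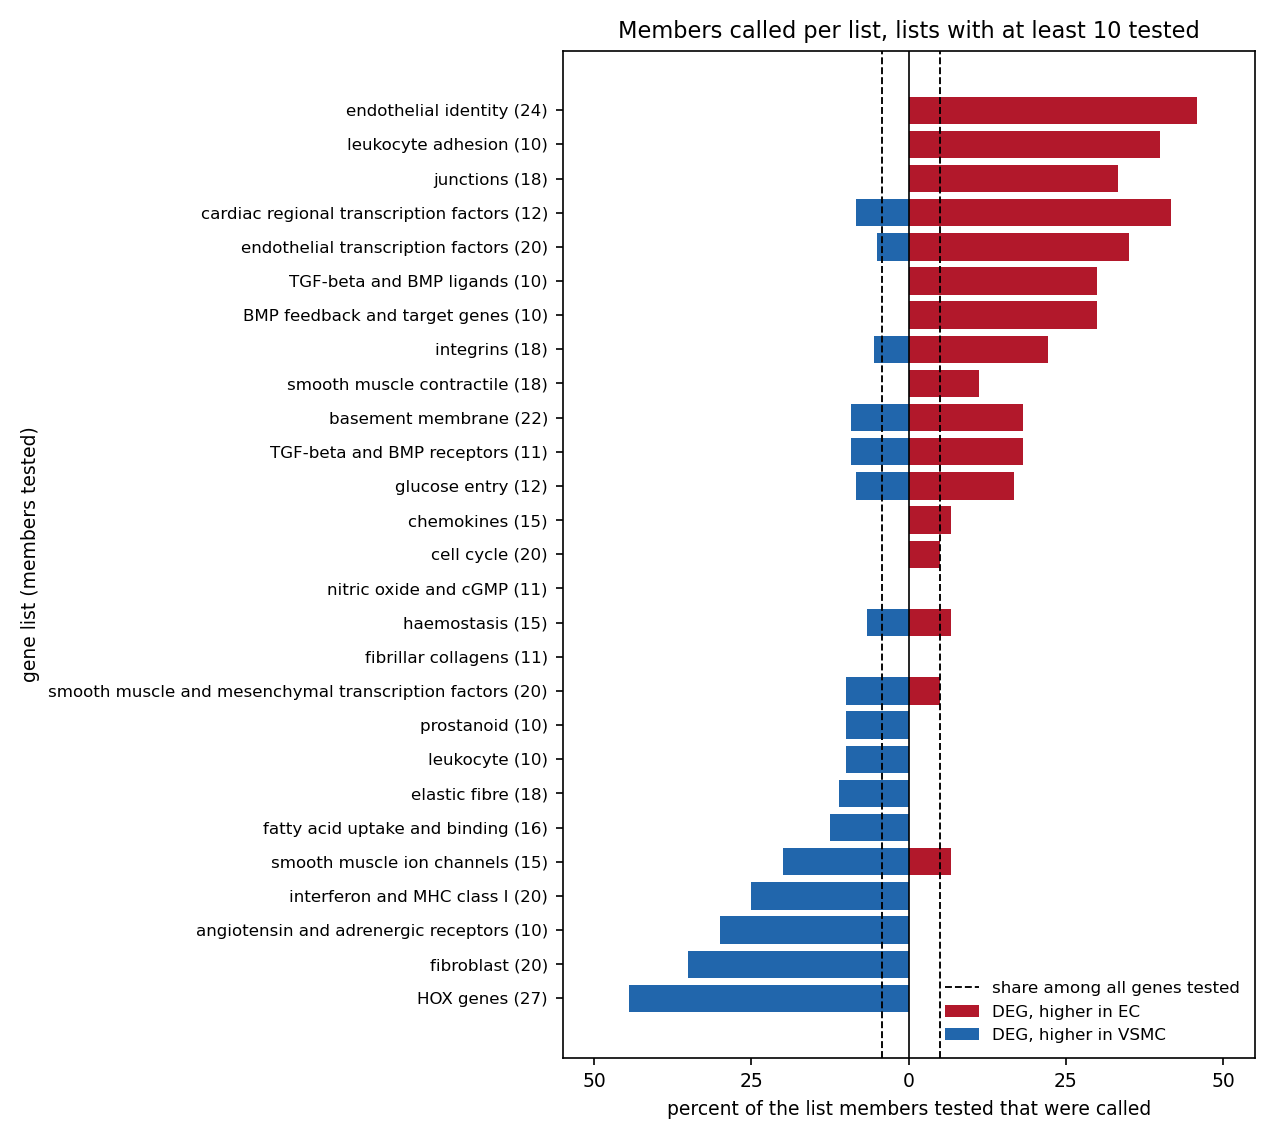
Percent of the tested members of each gene list that were called higher in EC (right) or in WT VSMC (left), for lists with at least 10 members tested, with dashed lines at the shares among all genes tested, 5.01% and 4.31%. Endothelial identity, with 11 of 24, reaches furthest to the right among the larger lists, and the HOX genes, with 12 of 27, furthest to the left.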

How the data were processed

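Counts of 13 unstressed libraries were compared, 9 EC and 4 WT VSMC, out of 69 poly(A) RNA-Seq libraries. The files deposited by the authors give, for each gene, a raw read count from HISAT2 2.1.0 alignments to mm39 and featureCounts, neither scaled nor filtered. Reads with several alignments were counted, so near-identical genes can share reads, and the strand setting is not given in the sources used here. No reads were aligned here. All 13 libraries held 0 counts on the 37 mitochondrial genes.

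Gene symbols, types, GRCm39 positions and exon overlaps came from GENCODE, which lacks the identifiers of 0.0245% of the counts. Genes passing edgeR's filterByExpr (17115) were fitted with the cell type as the only term, since batch coincides with it: edgeR 4.0.16 (TMM, quasi-likelihood test) and DESeq2 1.42.0 in R 4.3.3, with Benjamini-Hochberg adjustment over all genes tested. The DEG definition of the study was kept: both FDRs under 0.05, |log2FC| no smaller than 0.64, 3 FPM or more on average in 1 or both groups, and a protein-coding or lncRNA gene. FPM scales counts to the library total multiplied by its TMM factor. Python 3.11.15 with pandas 2.3.3 and matplotlib 3.10.9 made tables and plots, and 0.1 FPM was added before single values were put on a log2 scale. The fit was tested on simulated counts, drawn with edgeR's trended dispersion, so that genes of like level had like spread. No EC libraries stood apart in them as sets 9, 11 and 13 do. In these counts the fit called 18 of 100 genes changed 2-fold and 100 of 100 changed 8-fold, with 4 false calls among 16774 genes tested. In the data Kdr, Erg and Tcf21 had fitted differences over 8-fold and were not called, so these rates do not carry over.

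The comparison and the gene lists were chosen with earlier results of these data known. Named genes were list members, the 10 DEG per direction with the largest |log2FC| among those with groups that did not overlap, at least 10 FPM in the higher group and more than 3 counts in the lower, the 5 per direction with the largest difference in FPM, and up to 3 lncRNA per direction. List counts are set against the share of all genes called. Promoter sequences (RefSeq, GRCm38.p6) were matched by symbol, and no coordinates were converted between builds. EC set 10 without stressors was not analysed here. The alternatives were edgeR or DESeq2 alone, other size factors, no filters, a larger log2FC, all gene types, single libraries and sets left out, sets 17 and 18 summed, KO VSMC in place of WT VSMC, the stressed libraries, and the animal as a block.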

Additional observations from a re-analysis of the deposited data

Results flagged for a closer look

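For 143 genes and list sums, EC and WT VSMC were each checked for a library far from the others. Dixon's test on the log2 scale flagged 15 cases. Chance alone flags about 1 in 20 such checks, which gives about as many flags as were found. The values below belong to genes named in the report, and their causes were not tested.

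Cdh13 was at 32.7 FPM in EC set 11, where the next EC library had 178.2 FPM, and at 72.4 FPM in WT VSMC set 2, where the next had 24.7 FPM. Erg was at 0 FPM in EC set 17, with 3.76 FPM in the next EC library. WT VSMC set 2 also had the highest aortic values of Itpr1, 37.6 FPM against 26.5 FPM in the next, and of Klhl4, 0.102 FPM, which is 3 counts. Fabp4 was at 171.2 FPM in WT VSMC set 3, where the next library had 15 FPM, and Ece1 was at 66.4 FPM in the same library, where the next had 183.5 FPM. Mcm2 was at 14.3 FPM in WT VSMC set 1, with 11.5 FPM in the next.

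Several HOX genes had 1 EC library above the rest. Hoxb8 was at 13.9 FPM in EC set 13 and 2.15 FPM in the next, Hoxc4 at 1.69 FPM and Hoxc9 at 0.192 FPM in EC set 12, and Hoxc10 at 0.0410 FPM in EC set 16 while it had no read in the other EC libraries. In WT VSMC set 1, Hoxc10 was at 0.418 FPM, with 4.44 FPM in the next. EC set 18 had the highest EC levels of Col6a6 (1.54 FPM) and Eya2 (0.721 FPM).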

How the results depend on the processing

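No alternative reversed the direction of a called gene, except where VSMC lacking Egfr replaced or joined WT VSMC, for Egfr and Mcm2. The uncalled Cldn5, Fabp4 and Erbb2 changed direction without WT VSMC sets 2, 3 and 1. Of 135 genes named, 135 kept their call with edgeR alone, with DESeq2's size factors, with all gene types and without the FPM minimum. Calls were lost for 43, 46, 43 and 47 of them without WT VSMC sets 1, 2, 3 and 4. Without 1 EC library at most 16 lost their call, and 33 did without EC sets 15 and 16. With KO VSMC in place of WT VSMC, 38 lost their call, and 90 did with the animal as a block. The share of DEG that were higher in EC stayed between 45.3% and 58.7%. The number of DEG depended on the libraries. Leaving out 1 library at a time gave 581 to 2431 DEG, 283 to 1273 higher in EC and 298 to 1158 in WT VSMC, 116 to 379 and 129 to 303 at 4-fold or more, and 587 to 900 and 759 to 1161 without overlap. The lists then held 2 to 16 endothelial identity, 8 to 14 HOX, 3 to 6 cardiac and 2 to 8 fibroblast genes, and 1 to 2 and 0 to 1 contractile genes higher in EC and WT VSMC. Fewer libraries in WT VSMC lowered the number each time: 675, 581, 730 and 757 DEG without sets 1 to 4. Without EC sets 15 and 16 there were 824 DEG (449 and 375, at 4-fold 154 and 146), with 6 endothelial identity, 3 cardiac and 4 fibroblast genes. Without EC sets 9, 11 and 13, an alternative chosen after seeing the data, there were 3510 (1832 and 1678, at 4-fold 559 and 416, without overlap 1812 and 2150), with 20 endothelial identity and 12 fibroblast genes and 4 contractile genes higher in WT VSMC. The causes were not tested.

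Of the analysis settings, DESeq2 alone called 2442 DEG, 1403 higher in EC, 452 of these at 4-fold or more, with 20 endothelial identity genes and 2 contractile genes higher in WT VSMC. A |log2FC| of at least 1 left 467 genes higher in WT VSMC, and total counts without TMM called 1 contractile gene there. In the stressed libraries, which include EC set 10 and lack EC set 15 under AII + NA, the DEG were 2611 under HG + FFA (1327 and 1284, with 1 contractile gene higher in WT VSMC), 2930 under AII + NA (1488 and 1442, without overlap 997 and 1165, with 1 contractile gene higher in EC and 2 in WT VSMC) and 2611 under ALL (1362 and 1249, 941 without overlap higher in EC, with 18 endothelial identity genes and with 0 contractile genes higher in EC and 1 in WT VSMC). With KO VSMC in place of WT VSMC, 117 genes were at least 4-fold higher in VSMC, 18 endothelial identity genes and 3 cardiac genes were higher in EC, 2 fibroblast genes in VSMC, and 1 and 4 contractile genes in EC and VSMC. The log2FC of Egfr, the gene labelled as knocked out, was then 2.50 (edgeR FDR = 0.195), and that of Mcm2 was -0.12. The relative standard deviation over all genes with a count was 1.21 in EC and 0.707 in WT VSMC. Among all DEG the ETS letters stood in 4.29% and 5.68% of promoters.

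Only 3 animals gave unstressed libraries of both cell types, 2 of them with KO VSMC. With the animal as a replicate block over these 6 libraries there were 75 DEG (44 and 31, at 4-fold 42 and 28), 3160 and 3112 genes without overlap, 2 endothelial identity, 7 HOX, 3 cardiac and 1 fibroblast gene called, and 0 contractile genes higher in EC. The log2FC of Egfr was 1.37 and of Mcm2 -0.39 in that fit. Set numbers are not shared between the groups, so they gave no further pairing.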
